A study of Mus musculus with 6 samples.

Results

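Leydig cells lie between the seminiferous tubules and make the testosterone of the testis. Luteinizing hormone binds its receptor LHCGR on these cells, cholesterol is taken up and moved into the mitochondria, and a short chain of enzymes converts it to testosterone. The transcription factor NR5A1 drives many of the genes of this pathway, and INSL3 is a peptide hormone that the same cells secrete. The 10 genes described here are the cholesterol transporters Scarb1 and Star, the enzyme genes Cyp11a1, Hsd3b1, Hsd3b6, Cyp17a1 and Hsd17b3, the receptor gene Lhcgr, the regulator Nr5a1 and the hormone gene Insl3. They were taken as every probe set (the short probes that together read 1 stretch of a transcript) whose symbol in the platform annotation was exactly 1 of these names. That gave 14 probe sets of 7 genes, out of 45101 probe sets on the array.

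Whole testes were taken at 12 weeks of age from 3 wild-type mice (WT) and 3 mice homozygous for an Alkbh1 knockout (KO, Alkbh1-/-), and each mouse gave 1 Affymetrix array. Alkbh1 encodes a dioxygenase of the AlkB family. The source label gives both groups a C57/BL6 background, while the genotype field spells the strain C53/BL6. The labels do not say which part of Alkbh1 is missing, so how far a probe set checks the genotype is unknown. The Alkbh1 probe set with the higher level read 8.43, 8.65 and 8.72 log2 in WT and 5.76, 5.30 and 5.20 in KO. Values are log2 expression, where 1 unit is 2-fold, and they compare arrays within a probe set, not genes with each other. Of the 14 probe sets, 11 were high enough to be tested, 1 or more for each of the 7 genes. WT replicates 1 and 2 were the least alike of any pair of arrays (Pearson r = 0.989 across the 27022 probe sets tested, against 0.992 to 0.996 for the other pairs). The control RNAs spiked into the samples averaged 6.69 log2 in WT replicate 1, 9.41 in WT replicate 2 and 7.59 to 8.10 in the other 4 arrays.

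Transcripts for uptake of cholesterol and for each enzyme step to testosterone were measured in both genotypes, and none passed the test of KO against WT. Of the 11 tested probe sets 0 passed in either direction (limma, Benjamini-Hochberg adjusted p under 0.05), and 0 reached an unadjusted p under 0.05. Over all 27022 probe sets 0.0407% passed (0.0333% higher and 0.0074% lower in KO), and 5.11% were at an unadjusted p under 0.05. In none of the 14 did the 3 KO values lie wholly above or below the 3 WT values, a pattern that 11% of all tested probe sets had. With 1 probe set standing for each gene, that of the highest mean, 4 genes were higher in KO and 3 lower, where 44.1% of all genes were lower. Their median difference (KO minus WT) was 0.004 log2, against 0.012 over all 13897 genes tested. In RNA from whole testis, fewer Leydig cells and less RNA per cell cannot be told apart.

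**Figure D1:**
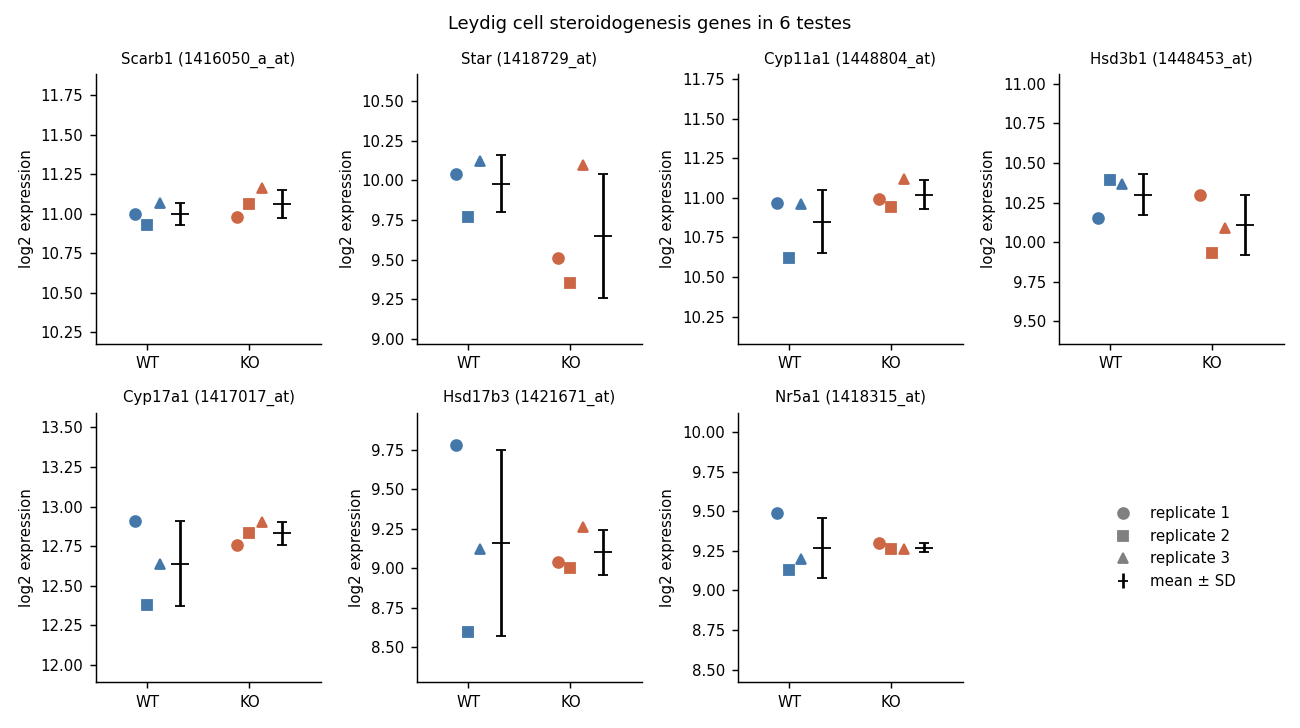
Log2 expression of the 7 measured genes in each testis (blue WT, orange KO; marker shape gives the replicate number), with the mean ± SD of each genotype in black and the same 1.7 log2 height of axis in every panel. KO and WT points overlap for every gene; Star is low in KO replicates 1 and 2, and Hsd17b3 spreads widely among the WT testes.

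Scarb1 encodes the scavenger receptor that takes up cholesterol esters from high-density lipoprotein. Its probe set 1416050_a_at read 11.00, 10.93 and 11.07 in WT and 10.98, 11.06 and 11.16 in KO. The values lay close together on all 6 arrays and the groups overlapped. The difference was 0.07 ± 0.07 log2 (SE, n = 3 each; limma adjusted p = 0.993), with a 95% interval from −0.09 to 0.22. The 2 other probe sets of Scarb1, 1455820_x_at and 1437378_x_at, gave −0.02 ± 0.09 and 0.04 ± 0.11. The 95% intervals of all 3 lay between −0.22 and 0.29.

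Star encodes the protein that carries cholesterol to the inner mitochondrial membrane, the acutely regulated step of steroid synthesis. It showed the largest difference among the members. Probe set 1418729_at read 10.04, 9.77 and 10.12 in WT and 9.51, 9.35 and 10.10 in KO. KO replicates 1 and 2 were below every WT testis, whereas KO replicate 3 stood at the upper end of the WT values. The difference was −0.33 ± 0.19 (limma adjusted p = 0.993; interval −0.76 to 0.11). The second probe set, 1418728_at, read 9.77, 9.76 and 10.14 in WT and 9.37, 9.12 and 9.93 in KO, a difference of −0.41 ± 0.20 (limma adjusted p = 0.993), and had the smallest unadjusted p of all members, 0.0747. The third, 1449201_at, read 9.35, 9.15 and 9.66 in WT against 8.97, 8.80 and 9.52 in KO (−0.29 ± 0.20). All 3 probe sets placed KO replicates 1 and 2 lowest of the 6 arrays, so the low Star reading of these 2 testes was seen in 3 of 3 probe sets, all annotated to the same transcript record. Without KO replicate 3 the difference of 1418729_at was −0.55, and without KO replicate 2 it was −0.18 (limma adjusted p = 0.781 and 1).

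Cyp11a1 encodes the side-chain cleavage enzyme that turns cholesterol into pregnenolone in the mitochondrion. Probe set 1448804_at read 10.97, 10.62 and 10.96 in WT and 10.99, 10.94 and 11.12 in KO. WT replicate 2 stood below the other 5 arrays, which lay within 0.2 log2 of each other. The difference was 0.17 ± 0.10 (limma adjusted p = 0.993; interval −0.07 to 0.41), and without WT replicate 2 it was 0.05. The 2 other Cyp11a1 probe sets had means of 5.79 and 4.64 over the 6 arrays, under the lowest level tested (6.02), and their differences of −0.15 and 0.18 had opposite signs.

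The next enzyme, 3-beta-hydroxysteroid dehydrogenase, comes from a family of near-identical genes on chromosome 3. Hsd3b1 probe set 1448453_at read 10.15, 10.39 and 10.37 in WT and 10.30, 9.93 and 10.09 in KO. KO replicates 2 and 3 were below all WT values, while KO replicate 1 lay among them. The difference was −0.20 ± 0.11 (limma adjusted p = 0.993; interval −0.45 to 0.05), and it was −0.30 without KO replicate 1 and −0.11 without KO replicate 2. Hsd3b6, described in mouse as the form of adult Leydig cells, had no probe set of its own name. A probe set annotated to Hsd3b6, Hsd3b3 and Hsd3b2 together, 1460232_s_at, read 11.22, 11.09 and 11.29 in WT and 11.12, 11.21 and 11.34 in KO, a difference of 0.02 ± 0.08 (limma adjusted p = 0.998). Which of these 3 genes gave that signal, and how far the Hsd3b1 probes also read their relatives, is unknown. Hsd3b1 and Hsd3b6 are neighbours, and the sequences at their starts are shown because the array reads the family partly as 1. The windows run from 250 bases before to 50 after the annotated start on the minus strand (RefSeq, GRCm38.p6), Hsd3b1 at chr3:98859745-98860044 and Hsd3b6 at chr3:98814394-98814693. Capitals mark matches on either strand to the NR5A1 core site AAGGTCA, the GATA factor motif AGATAA or the CREB core site TGACG.
Hsd3b1: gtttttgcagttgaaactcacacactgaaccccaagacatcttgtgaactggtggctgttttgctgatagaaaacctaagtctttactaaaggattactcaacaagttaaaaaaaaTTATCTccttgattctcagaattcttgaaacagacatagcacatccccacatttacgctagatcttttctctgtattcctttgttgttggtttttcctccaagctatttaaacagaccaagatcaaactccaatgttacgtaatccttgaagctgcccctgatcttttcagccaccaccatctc
Hsd3b6: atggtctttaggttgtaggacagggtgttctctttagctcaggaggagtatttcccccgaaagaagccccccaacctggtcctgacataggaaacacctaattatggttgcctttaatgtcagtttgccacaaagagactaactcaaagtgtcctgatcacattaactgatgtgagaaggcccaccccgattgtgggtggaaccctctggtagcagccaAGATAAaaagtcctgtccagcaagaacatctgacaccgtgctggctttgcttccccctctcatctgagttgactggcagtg
Each window held 1 AGATAA match, 134 bases before the start on the opposite strand in Hsd3b1 and 31 bases before it on the same strand in Hsd3b6. AGATAA was found in 11.2% of the 32851 promoter windows of the table.

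Cyp17a1 encodes the hydroxylase and lyase that opens the way from progesterone to androgens. Probe set 1417017_at read 12.91, 12.38 and 12.64 in WT and 12.76, 12.83 and 12.90 in KO. The KO testes lay close together and inside the wider WT range. The difference was 0.19 ± 0.12 (limma adjusted p = 0.993; interval −0.10 to 0.47). Without WT replicate 1 it was 0.32 and without WT replicate 2 it was 0.05. Without both it was 0.19 again, so these 2 arrays moved it in opposite directions.

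Hsd17b3 encodes the enzyme that reduces androstenedione to testosterone, the last step. Probe set 1421671_at read 9.78, 8.60 and 9.12 in WT and 9.04, 9.00 and 9.26 in KO. The WT testes differed 2.27-fold between replicates 1 and 2, with the KO values between them. The mean difference was −0.06 ± 0.26 (limma adjusted p = 0.998), and its interval from −0.66 to 0.54 was the widest of any member. Its direction depended on 1 array, as it was 0.24 without WT replicate 1 and −0.35 without WT replicate 2 (limma adjusted p = 0.58 and 0.852).

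Nr5a1 encodes steroidogenic factor 1, the nuclear receptor that activates steroidogenic genes and is also made by Sertoli cells. Probe set 1418315_at read 9.49, 9.13 and 9.20 in WT and 9.30, 9.26 and 9.26 in KO. WT replicate 1 stood above the other 5 arrays and the group means were equal to 2 decimals, 9.27 ± 0.19 and 9.27 ± 0.03 (SD, n = 3 each). The difference was 0.00 ± 0.10 (limma adjusted p = 0.999; interval −0.22 to 0.23). The other Nr5a1 probe set, 1421730_at, was under the lowest level tested (mean 5.71) and differed by 0.02.

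**Figure D2:**
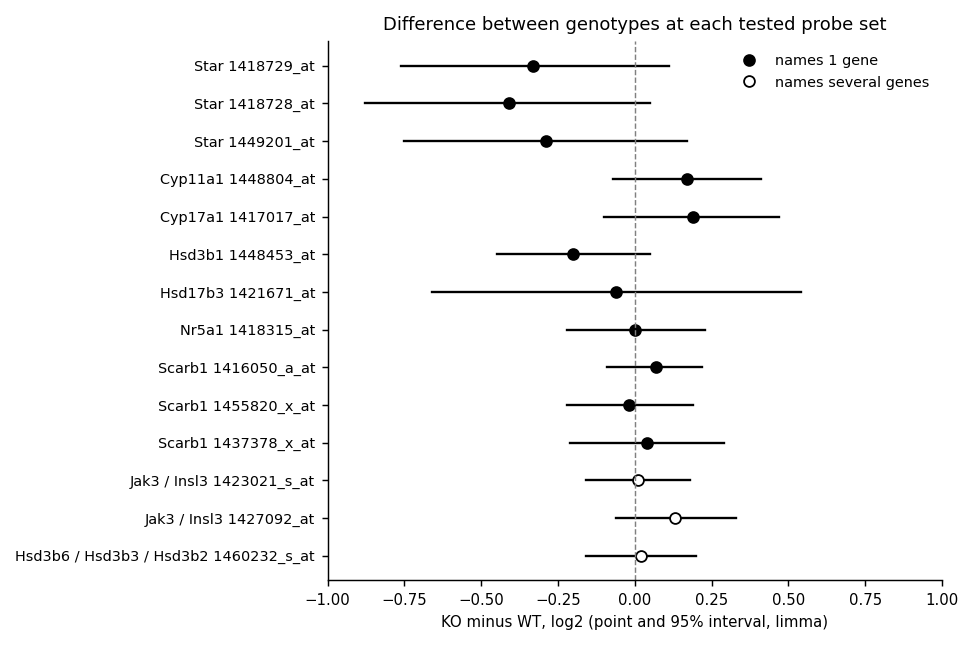
KO minus WT difference in log2 (points) with the 95% interval from limma (lines) for each tested probe set, filled where it names 1 gene and open where it names several. Every interval includes 0; those of Star (differences −0.33, −0.41 and −0.29) reach furthest below 0, to −0.88, and that of Hsd17b3 is the widest.

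Insl3 and Lhcgr could not be read by the rule. Insl3 shares 2 probe sets with Jak3, a kinase gene of lymphoid cells. The first, 1423021_s_at, read 13.80, 13.74 and 13.88 in WT and 13.93, 13.66 and 13.86 in KO (0.01 ± 0.07, limma adjusted p = 0.999). The second, 1427092_at, read between 6.34 and 6.63 on all arrays (0.13 ± 0.09, limma adjusted p = 0.993). Which of the 2 genes gave each signal is not settled by the annotation. Lhcgr was named by no probe set in the annotation used here and was not analysed. The start of Insl3 (chr8:71689002-71689301, plus strand, RefSeq, GRCm38.p6) is shown because it held matches to a relaxed form of the NR5A1 site, CAAGGNC, which overlaps AAGGTCA in its letters and was added after the sequences had been seen. Capitals mark these matches.
Insl3: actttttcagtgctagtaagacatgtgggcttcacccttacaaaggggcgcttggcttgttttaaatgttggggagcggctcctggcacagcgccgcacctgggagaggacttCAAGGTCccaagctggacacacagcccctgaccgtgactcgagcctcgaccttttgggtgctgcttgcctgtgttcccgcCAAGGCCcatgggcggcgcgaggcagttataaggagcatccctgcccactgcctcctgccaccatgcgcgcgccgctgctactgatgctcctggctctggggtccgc
The 2 matches began 137 and 57 bases before the start, on the same strand. CAAGGNC occurred in 17.8% of the 32851 windows, and AAGGTCA, found in none of the 7 windows listed for Cyp11a1 (2 starts), Hsd3b1, Hsd3b6, Hsd17b3, Insl3 and Lhcgr, occurred in 4.72%.

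The members varied more between mice of 1 genotype than most transcripts did. The pooled SD within genotype had a median of 0.161 log2 over the 7 genes, against 0.100 over all tested probe sets, and 6 of the 7 lay above that median. Hsd17b3 had an SD of 0.431, larger than that of 99.3% of tested probe sets. Star followed with 0.307 (97.3%; 98.0% and 97.8% at its other probe sets). Cyp17a1 had 0.196 (88.7%), Hsd3b1 0.161 (80.4%), Cyp11a1 0.157 (79.3%) and Nr5a1 0.135 (70.8%). Scarb1 had 0.080 (34.5%) at its probe set of highest mean, but 0.127 (66.8%) and 0.161 (80.5%) at its other probe sets, which lay above the median too. Against the upper 30% of tested probe sets by mean (8107), a background chosen after seeing the data, the median SD was 0.085 and the same 6 genes lay above it.

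**Figure D3:**
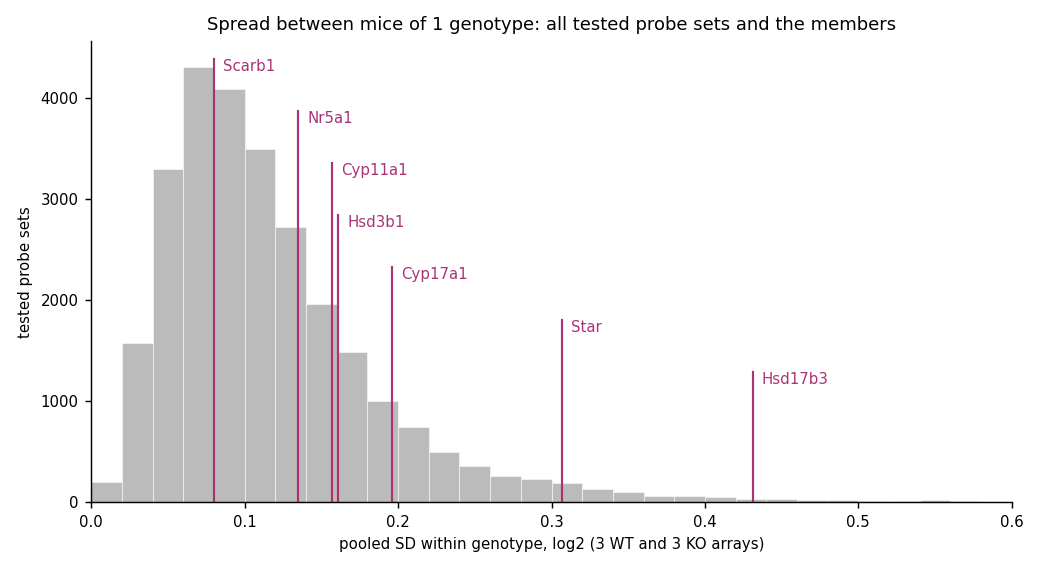
Histogram of the pooled SD within genotype, in log2, over the 27022 tested probe sets (grey; 0.6 is the end of the axis), with the SD of each member gene as a line whose height has no meaning. The genes other than Scarb1, drawn at its probe set of highest mean, lie to the right of the median of 0.100, and Star (0.307) and Hsd17b3 (0.431) lie in the upper tail.

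The arrays that stood apart were not the same for every gene. For Hsd17b3 the spread lay in the WT group (SD 0.59 against 0.14 in KO), and the same held for Cyp17a1 (0.27 against 0.07) and Nr5a1 (0.19 against 0.03). All 3 of these genes were highest in WT replicate 1 and lowest in WT replicate 2 of the 6 arrays, the arrays with the lowest and the highest spiked control signal. For Star the spread was larger in KO (0.39 against 0.18). Equality of the SDs of the 2 genotypes was not tested. Without WT replicate 2 the median SD of the members was 0.125, with 5 of 7 above a background median of 0.091, and without WT replicate 1 it was 0.153, with 6 above 0.082. The part of the spiked control signal in these values was not tested.

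From mouse to mouse most pairs of members correlated positively, but none passed after adjustment. Of the 21 pairs of member genes, each gene by its probe set of highest mean, 16 had a positive Pearson r over the 6 arrays. The 5 negative ones all involved Hsd3b1, which depended on the Scarb1 probe set taken. As deviations within genotype, Scarb1 at 1455820_x_at and 1437378_x_at had r of −0.77 and −0.76 to Nr5a1. The r were −0.46 and −0.45 to Hsd17b3 and −0.37 and −0.40 to Cyp17a1. They were −0.01 and 0.01 to Cyp11a1, 0.09 and 0.22 to Hsd3b1 and 0.32 and 0.46 to Star (1418729_at). The highest r was that of Hsd17b3 with Nr5a1 (r = 0.91, exact permutation p = 0.0292, adjusted over the 21 pairs 0.331; Spearman rho = 0.71, exact permutation p = 0.136, adjusted 0.476). Without WT replicates 1 and 2, the 2 arrays farthest from the median of Hsd17b3, it was −0.16, so the relation rested on them. Cyp11a1 and Cyp17a1 followed (r = 0.88, exact permutation p = 0.0431, adjusted 0.331; rho = 0.60, exact permutation p = 0.242, adjusted 0.567), and this fell to −0.10 without KO replicate 3 and WT replicate 2. Cyp17a1 and Hsd17b3, the last enzymes of the chain, had r = 0.81 (exact permutation p = 0.0694, adjusted 0.331; rho = 0.77, exact permutation p = 0.103, adjusted 0.476), which was 0.78 without WT replicates 2 and 3 and 0.33 without WT replicates 1 and 2. As deviations from each genotype's own mean their r was 0.99. Star had r from 0.07 to 0.46 to the other 6 genes over the levels, which hold its difference between genotypes. Within genotype its r was 0.80 to Scarb1, 0.75 to Cyp11a1, 0.50 to Hsd17b3, 0.47 to Cyp17a1, 0.17 to Nr5a1 and 0.01 to Hsd3b1. The r within genotype were not tested. After adjustment 0 of the 21 pairs passed, with 2 at an unadjusted p under 0.05. By rho over 6 arrays a single pair alone could not pass, even with the same order of arrays for both genes.

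The starts of Cyp11a1 and Hsd17b3 are shown as those of 2 members whose deviations within genotype ran with those of Cyp17a1 (r = 0.84 and 0.99). Over the levels neither pair passed after adjustment, and the limits of both are given above. Nr5a1 ran with Cyp17a1 too (r = 0.88 within genotype), but no start was listed for it. The sequences come from RefSeq (GRCm38.p6), for the second of the 2 listed Cyp11a1 starts at chr9:58014702-58015001 on the plus strand and for Hsd17b3 at chr13:64089152-64089451 on the minus strand. No base is in capitals, since neither window held any of the 4 motifs on either strand.
Cyp11a1: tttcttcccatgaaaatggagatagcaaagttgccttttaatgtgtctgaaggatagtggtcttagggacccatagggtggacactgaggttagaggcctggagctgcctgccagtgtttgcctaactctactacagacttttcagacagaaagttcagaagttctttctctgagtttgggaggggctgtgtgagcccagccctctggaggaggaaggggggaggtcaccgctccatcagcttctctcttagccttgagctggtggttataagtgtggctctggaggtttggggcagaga
Hsd17b3: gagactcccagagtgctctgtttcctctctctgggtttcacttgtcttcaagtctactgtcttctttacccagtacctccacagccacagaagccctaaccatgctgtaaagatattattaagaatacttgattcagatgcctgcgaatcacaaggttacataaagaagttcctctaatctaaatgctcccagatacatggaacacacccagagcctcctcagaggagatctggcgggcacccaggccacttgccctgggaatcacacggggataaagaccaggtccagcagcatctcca
TGACG occurred in 20.8% of all windows, among them that of the first Cyp11a1 start, 50 bases before it on the opposite strand.

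The mean of the 7 members, each taken against its mean over all arrays, was 0.173 log2 in WT replicate 1, −0.188 in WT replicate 2, 0.050 in WT replicate 3 and −0.035, −0.110 and 0.109 in KO replicates 1, 2 and 3. These means overlapped between the genotypes, with both the highest and the lowest in WT. Macrophages, which lie beside Leydig cells in the interstitium, had a list mean that followed a similar course. Of its 11 markers 10 were tested, and 9 of these correlated positively with the members' mean as deviations within genotype (r = 0.80 for the list mean over 6 arrays, 0.73 for the levels themselves, and 0.84 without WT replicates 1 and 2). Its mean ran from 7.76 to 7.93 log2 in WT and from 7.81 to 7.98 in KO, and was lowest in WT replicate 2 and KO replicate 2, as for the members. The macrophage receptor gene Cd163 lay under the level tested. The complement gene C1qc, the marker of this list most like the members (r = 0.97 within genotype), read 7.97, 7.46 and 7.79 in WT and 7.82, 7.59 and 7.88 in KO. Mrc1 ran the other way (r = −0.40), with 9.36, 9.60 and 9.45 in WT and 9.40, 9.42 and 9.57 in KO. Csf1r and Cd14 had r of only 0.10 and 0.23. Spermatocyte markers ran against the members (r = −0.64 for 8 genes, 0 of which were positive within genotype), from 12.15 in WT replicate 1 to 12.36 in WT replicate 2, although without those arrays r was 0.98 over 4 arrays. Spermatogonial markers ran with the members too (r = 0.76 for 7 genes, 0.83 within genotype and 0.44 without WT replicates 1 and 2). Within genotype 6 of the 7 were positive. The list means of peritubular myoid and endothelial markers had r of −0.38 and −0.13 to the members. That of spermatid markers had r = 0.07, but 0.94 without WT replicates 1 and 2. Within genotype r was 0.71 for Sertoli genes that depend on androgen, 0.69 for the 2 tested adrenal cortex markers and −0.53 for Sertoli markers. A high r to the members was thus not particular to the macrophage list. The list mean of fetal or immature Leydig markers ran against the members (r = −0.68 for the mean of 4 genes). This r was −0.73 within genotype and −0.53 without WT replicates 1 and 2. The 4 genes differed within genotype, with r of −0.86 for Nr2f2, −0.31 for Dlk1, −0.12 for Pdgfra and 0.01 for Nes. The lists share the same 6 arrays and their labelling, and the part of cell make-up in the members' spread was not tested.

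**Figure D4:**
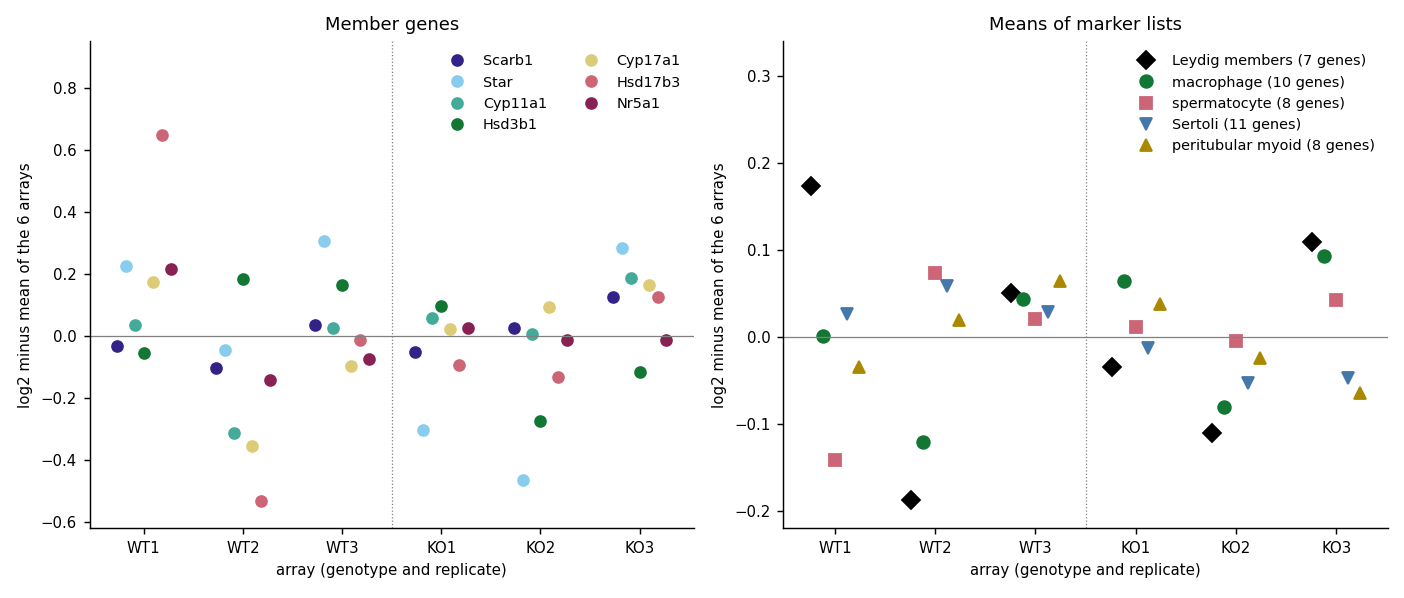
Left, each member gene's log2 value minus its mean over the 6 arrays; right, the same for the mean of the members and of 4 lists of cell markers, with the number of tested genes in brackets; the dotted line parts WT from KO and arrays are numbered by replicate. WT replicates 1 and 2 take the ends of the members' range (0.173 and −0.188), and the macrophage list is lowest in WT replicate 2 and KO replicate 2.

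No marker of another cell type passed (limma), and only the Sertoli list held genes at an unadjusted p under 0.05. Sertoli markers were lower in KO in 9 of 11 genes (median −0.080; list means 9.54 to 9.57 in WT and 9.46 to 9.50 in KO), with 2 such genes, Inha at −0.12 ± 0.05 and Kitl at −0.21 ± 0.07 (limma adjusted p = 0.974 and 0.908). Over all genes tested 44.1% were lower in KO, and 5.11% of all tested probe sets were at an unadjusted limma p under 0.05. Peritubular myoid markers had a median of −0.042 over 8 genes, endothelial markers 0.023 over 5 and spermatogonial markers −0.026 over 7. Markers of fetal or immature Leydig cells stood at −0.025 over 4 genes. Of 6 markers of the adrenal cortex, another steroid-making tissue, 2 were tested, and its defining enzyme genes Cyp11b1 and Cyp11b2 lay under the level tested. Spermatid markers were higher in 8 of 8 genes, by a median of 0.035. The 3 tested markers of fat and epididymis had a median of 0.150, in which Fabp4, a fat cell marker, ranged from 5.77 to 8.38 in WT and from 6.84 to 9.80 in KO.

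No other gene of the pathway passed. Among 18 genes of cholesterol handling and electron supply 12 were tested, of which 7 were higher and 5 lower in KO (median 0.022), 0 passed and 2 had an unadjusted p under 0.05. These were Cyb5r3, the reductase of cytochrome b5, at 0.22 ± 0.07 (limma adjusted p = 0.863) and Abca1, the cholesterol exporter, at 0.19 ± 0.08 (limma adjusted p = 0.967). KO and WT values did not overlap for these 2 genes, as for 12.2% of all genes tested. Npc2, a lysosomal cholesterol carrier, stood at −0.08 ± 0.06. Tspo, the mitochondrial translocator protein, read 8.63, 8.22 and 8.50 in WT and 8.48, 8.60 and 8.57 in KO. It was lowest in WT replicate 2, like 5 of the members, and Fdx1, the electron donor of CYP11A1, differed by 0.03 ± 0.06.

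Of 27 regulators 23 were tested, 10 higher and 13 lower in KO (median −0.036, 0 passed, 0 at an unadjusted p under 0.05). Nr0b1, which encodes the repressor DAX1 of NR5A1, had the smallest p. It read 8.90, 8.73 and 8.91 in WT and 8.72, 8.65 and 8.75 in KO (−0.14 ± 0.07, limma adjusted p = 0.993). Crem, a cAMP-responsive factor that is abundant in spermatids, stood at 0.12 ± 0.06 and Lhx9, a gonadal factor, at −0.12 ± 0.08. Gata4, a partner of NR5A1 at steroidogenic promoters, differed by 0.00 ± 0.08, and Nr4a1, an early response gene of luteinizing hormone, by 0.04 ± 0.08.

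Downstream of testosterone, 13 of 20 genes of androgen and estrogen metabolism and their receptors were tested, 6 higher and 7 lower (median −0.010, 0 passed, 0 at an unadjusted p under 0.05). Hsd3b7, a family relative that acts in bile acid synthesis, stood at 0.17 ± 0.07, Rxfp2, the receptor of INSL3, at −0.16 ± 0.09 and Hsd17b7 at 0.10 ± 0.09. Sult1e1, the estrogen sulfotransferase, which mouse Leydig cells make, read 9.18, 9.02 and 8.77 in WT and 9.01, 8.80 and 8.86 in KO. Of the 10 Sertoli genes that depend on androgen 7 were lower in KO, against 44.1% of all genes tested (median −0.049, 0 passed, 1 at an unadjusted p under 0.05). Gata1 and Cldn11 are also among the Sertoli markers above, so the counts of these lists are not independent. Tubb3, a tubulin gene, stood at −0.22 ± 0.08 (limma adjusted p = 0.932). Rhox5, a homeobox gene that responds to androgen in Sertoli cells, read 10.15, 10.00 and 9.98 in WT and 9.99, 9.93 and 9.85 in KO (−0.12 ± 0.07, limma adjusted p = 0.993), and the tight junction gene Ocln stood at −0.10 ± 0.06. The values of Rhox5 overlapped between genotypes, while those of Tubb3 and Ocln did not (2 of the 10 genes, against 12.2% of all genes tested).

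Genes outside the list whose deviations within genotype were most like the members' mean were Hbp1 (r = 0.996), Mpdz (0.991), Phf8 (0.980), Paqr7 (0.978), Haus6 (0.977), Dhdds (0.977), Aldh18a1 (0.976) and Synj2 (0.967), over the same 6 arrays. Hbp1, which encodes a transcriptional repressor, had the highest level of these and read 9.53, 9.13 and 9.41 in WT and 9.45, 9.33 and 9.60 in KO. Mpdz, Phf8, Paqr7, Haus6 and Aldh18a1 read much lower, where the lowest mean tested was 6.02. Their values ran from 6.04 (Mpdz, WT replicate 2) to 7.46 (Haus6, KO replicate 3). Among 3505 candidate genes 74 had r above 0.9.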

How the data were processed

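Total RNA of 6 whole testes was hybridised to Affymetrix mouse arrays. The authors deposited 1 table of normalized log2 values, read as log2 from their range (2.61 to 15.00). Per the submitters' processing notes the software was GCOS 1.4. No source used here gives the background correction, probe summary or normalization; a normalization that equalises arrays hides global shifts, and low values understate differences. Scanner files were not used, so signal over background is unknown, and the number of arrays limits precision (median SE 0.08 log2).

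After removal of 64 control probe sets the upper 60% by mean of the other 45037 were tested (27022). KO was compared with WT by limma 3.58.1 in R 4.3.3 (lmFit, eBayes with an intensity trend, two-sided, Benjamini-Hochberg over all tested probe sets, threshold 0.05). On simulated arrays with 200 changed probe sets among 27022, it recovered 51.7% of changes of 0.5 log2 and 90.2% of changes of 1. Permutation tests were two-sided over 720 orders.

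Symbols came from the platform annotation. Other gene lists used symbols updated through RefSeq gene ids (GRCm38.p6), and named up to 3 genes of the smallest p each for pathway lists, while cell type markers and Tspo, Fdx1, Gata4, Nr4a1 and Sult1e1 were picked after their values were seen. The 8 genes of highest likeness were taken among those at least as variable as the median member. Members, lists and tests were chosen with earlier results of these data known. Replicates are separate mice, per the labels. Alternatives covered normalization, filter, moderation, array weights, a replicate block, probe set choice and left-out arrays.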

Additional observations from a re-analysis of the deposited data

How the results depend on the processing

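None of the 11 member probe sets passed under any of the 13 alternatives to the limma fit, which covered quantile normalization, both filters, no intensity trend, array weights, the replicate block and left-out arrays, and the smallest adjusted p was 0.258, with array weights. The median difference of the member genes was 0.004 log2 and ran from −0.066 to 0.112 over single arrays left out, so its sign is not settled. Star and Hsd3b1 were lower in KO, and Cyp11a1 and Cyp17a1 higher, under all 14 alternatives each. The sign of Hsd17b3 turned under 1 (0.24 without WT replicate 1), of Scarb1 under 1 (−0.00 without both WT replicates 1 and 2) and of Nr5a1 under 4. Over all probe sets 11 passed, against 7 with the upper 40% by mean, 46 with array weights, 2 without both WT replicates 1 and 2, and 2 to 12 with single arrays left out. Fewer probe sets or arrays enter these fits except that with array weights. The weights ran from 0.30 in WT replicate 1 to 2.57 in WT replicate 3. The cause of the changes in these counts was not tested. Without both WT replicates 1 and 2, which leaves 1 WT array assumed to vary like the KO arrays, the member differences ran from −0.47 (Star) to 0.19 (Cyp17a1). The replicate block gave 9 over all probe sets and 0 among members. Same-numbered WT and KO arrays deviated with r of 0.22, −0.02 and 0.10, so the numbers were not taken to pair the mice. The median SD of the members ran from 0.125 to 0.179 over its alternatives. With 3 arrays per genotype, a change of 0.5 log2 was recovered for 51.7% of the changed probe sets in simulated arrays of this comparison (27022 probe sets). The simulated SDs were drawn from all tested probe sets (median 0.100), whereas the members' median was 0.161. The share recovered is thus not that of the members. Changes of 0.5 log2 or more may also have been missed, above all in Star (SD 0.307) and Hsd17b3 (0.431).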

Other observations

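Star was set against the 23 tested regulators over the 6 arrays, a comparison chosen after seeing its values. The highest correlation was with Gnas, which encodes the stimulatory G protein subunit that couples the luteinizing hormone receptor to cAMP. The order of the 6 arrays was the same for both genes (Spearman rho = 1.00, Pearson r = 0.94, exact permutation p = 0.00278 for each, adjusted over 23 genes 0.0639 for each), and r was 0.77 without KO replicates 1 and 2. Gnas read 11.83, 11.83 and 11.89 in WT and 11.80, 11.77 and 11.88 in KO, a narrow range. Prkar1a, which encodes a regulatory subunit of the cAMP-dependent kinase, ran against Star (r = −0.89, exact permutation p = 0.0292, adjusted 0.335; rho = −0.83, exact permutation p = 0.0583, adjusted 0.335), and r was −0.23 without KO replicates 1 and 2. Nr0b1 had r = 0.82 with Star (exact permutation p = 0.0597, adjusted 0.343; rho = 0.94, exact permutation p = 0.0167, adjusted 0.192), and 0.61 without the same 2 arrays. Cebpb, a factor known to act on the Star promoter, read 7.21, 7.30 and 7.57 in WT and 7.14, 7.02 and 7.79 in KO. Its correlation with Star was 0.81 (exact permutation p = 0.0597, adjusted 0.343; rho = 0.89, exact permutation p = 0.0333, adjusted 0.256), and 0.56 without KO replicates 1 and 2. None of the 23 passed after adjustment. By rho over 6 arrays a single gene alone could not pass, since even a rho of 1.00 gave an adjusted exact permutation p of 0.0639.

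Mrap, the accessory protein of the corticotropin receptor, read 7.86, 7.57 and 7.62 in WT and 7.95, 7.69 and 8.16 in KO (0.25 ± 0.13, limma adjusted p = 0.993). Its deviations ran with the members' mean (r = 0.83 over 6 arrays), whereas Cyp21a1, the other tested gene of the adrenal list, had r = −0.14 and a difference of 0.03 ± 0.08 (limma adjusted p = 0.994). The estrogen receptor gene Esr1 read between 7.77 and 8.03 on all arrays.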
